A study of Mus musculus with 8 samples.

Results

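In mouse liver, 74 of the 22059 genes listed reached their highest level at postnatal day 14 (P14) and stood lower at embryonic day 18 (E18), at P28 and in the adult. They were chosen by the measured values themselves. A gene was kept when its P14 mean was 1 RPKM or more (reads scaled to transcript length and to the depth of the library) and at least 2.5 times each of the E18, P28 and adult means. Symbols that start with Cyp, Sult or Fmo were left out, which removed 13 more genes with that pattern. Since P14 decided membership, every P14 difference of these genes is a description without a test, and tests were made only between E18, P28 and adult.

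The samples were whole livers of FVB mice (FVB/NJ in the methods), 2 at each stage, with the adults at 3 months, and no stage carried a transgene or treatment in the labels. Poly(A) RNA was sequenced in biological duplicates, as the study describes them. The labels do not give the sex, litter, batch or date of the livers, nor whether animals were pooled. Between 68154675 and 106055723 reads were counted on genes per sample.

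The liver of a suckling pup works on milk, a food rich in fat and poor in carbohydrate, so that fatty acid oxidation and the making of ketone bodies run high, and weaning later turns the diet to starch. At birth the fetal liver is still a site of blood formation, which then moves to the bone marrow. The sex differences of adult liver metabolism arise around puberty under the pattern of growth hormone release.

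By their summed level, hepatocyte markers were high at all stages, and E18 also held markers of other tissues. The summed level of 6 hepatocyte genes was 126731 and 125799 RPKM at P14, after 41219 and 37763 at E18, and then at 77089 and 72907 in the P28 samples and 47347 and 40077 in the adult samples. Ahsg, a member chosen for its P14 level, made up 32912 and 32620 RPKM of the P14 sums. Alb, Apoa1 and Ttr also had their highest values at P14, and Hnf4a and Serpina1a had theirs in adults. Erythroid genes summed to 14525 and 18437 RPKM at E18 and to 55.6 to 99.5 in the other 6 samples. Pancreatic acinar markers summed to 302 and 657 RPKM at E18 and to 24.7 to 90.7 in the other 6. Among them Ctrb1 was at 119 and 322 RPKM at E18 and at most 0.397 later. Tff3, a gut epithelium marker, was at 45.6 and 27.1 RPKM at E18 and at most 0.949 later. The source of these transcripts was not tested, and the E18 samples enter the comparisons below. Both E18 samples took larger composition factors in the TMM scaling of edgeR (1.598 and 1.539) than the other 6 (0.8466 to 0.8875). In bulk liver, fewer cells of a type and less RNA per cell cannot be told apart.

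The second P14 sample stood apart from its duplicate. Xist, transcribed from the inactive X of female cells, was at 0.0248 RPKM in P14 replicate 1 and at 25.6 in replicate 2, while 4 Y-linked genes summed to 32.7 and 3.17. E18 replicate 1 had 64 RPKM of Xist and 0.00204 of the Y-linked genes, E18 replicate 2 had 6.75 and 40.2, and all P28 and adult samples had Xist at or below 0.0425 and the Y-linked sum between 36.5 and 44.6. E18 replicate 2 and P14 replicate 2 thus held both kinds of transcript. Skeletal muscle genes summed to 1.03 RPKM in P14 replicate 1 and 7.57 in replicate 2, with Acta1 at 0.00619 and 1.64. Without P14 replicate 2 the rule found 67 genes, 62 of them among the 74. The 12 lost were Adamtsl4, Cd7, Col4a5, Cpz, Dmbt1, Gimap7, Gzmb, Ly6d, Retnla, Rufy4, Scn4b and Tgfbi. When E18 replicate 1 was also left out, 67 genes were found and 62 were again shared.

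The rise was mostly several-fold. The P14 mean was a median of 3.47 times the mean of the highest other stage, with a range from 2.505 to 36.5 times. It reached 3 times in 50 members, 5 times in 22 and 10 times in 6, namely Inhbb, Retnla, Defb1, Pcp4l1, Sidt1 and Rsph4a. The stage next to P14 in level was P28 for 40 members, E18 for 23 and adult for 11. On RPKM rescaled for composition by TMM these counts were 52, 10 and 12, so the place of E18 rested on the scaling. The median ratio to E18 was 6.77 on deposited RPKM and 12.4 on rescaled RPKM, against 4.57 and 4.53 to P28 and 8.8 and 8.88 to adult. Just inside the limit of 2.5 stood Cd7 at 2.505, Hp at 2.509 and Vnn3 at 2.515, and just outside it Spib at 2.494, Klf2 at 2.462 and Ubd at 2.460.

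Rescaling by TMM kept 71 of the 74 at 2.5 times or more. The other 3 were Abcd2 at 2.49, Vnn3 at 2.49 and Cd7 at 2.48, and no member fell under 2 times. On RPKM rescaled by median-ratio factors, another composition scaling, the rule found 111 genes, with 65 of the 74 among them. Both P14 samples lay above all 6 other samples in 73 members, with Dmbt1 the exception. Among all 11217 genes with a P14 mean of 1 RPKM or more this order held for 7.24%, and since the rule used these values nothing is read from the count. The lower P14 sample was at least 2.5 times the highest other sample in 46 members.

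**Figure D1:**
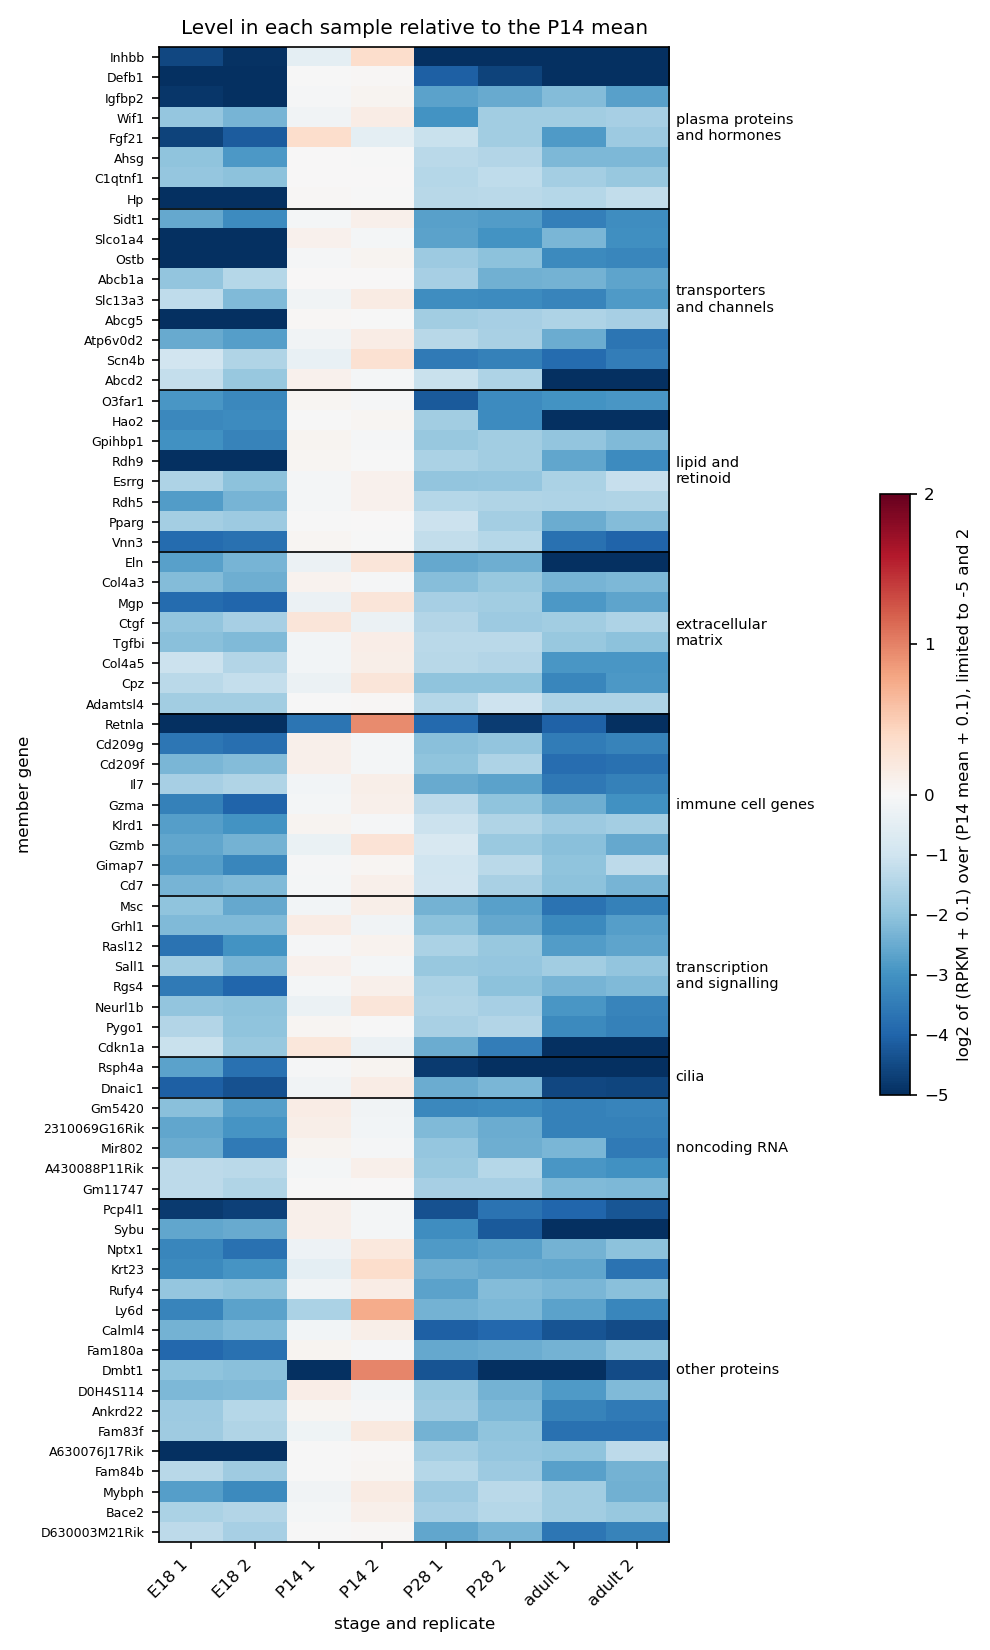
Level of the 74 members (rows, grouped by role and ordered by ratio within a group) in each of the 8 samples (columns), as log2 of RPKM + 0.1 over the P14 mean + 0.1, limited to -5 and 2. Most cells of the P14 columns are pale because the P14 mean is the reference, and the other 6 columns are blue. Retnla, Ly6d and Dmbt1 are deepest red in P14 replicate 2 and blue in P14 replicate 1.

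The members spanned a wide range of levels. The median P14 mean was 5.56 RPKM and the range ran from 1.01 to 32766, with 34 members under 5 RPKM, 27 at 10 or more and 6 at 100 or more. Together they took 6.19% and 6.15% of the gene reads in the P14 samples, of which Ahsg alone made up 83.3% and 83.1%. Low levels outside P14 were common, since the mean was under 0.5 RPKM in 34 members at E18, 23 at P28 and 37 in adult. By RefSeq, 69 of the 74 encode proteins, 4 are long noncoding RNAs and 1 is a microRNA gene.

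Upstream sequence was examined because the members share a time of high expression. Of the 74, 49 had a RefSeq promoter, in all 59 start sites. The 250 bases upstream of the start were searched on both strands for TATAAA, for a direct repeat of AGGTCA with 1 spacer base and up to 2 mismatches (the element that PPAR receptors bind with RXR), and for ACANNNTGT (a core of the glucocorticoid receptor element). TATAAA stood in 10 of 59 member promoters (16.9%) and in 12.4% of all 32841, the direct repeat in 0 and 3.24%, and ACANNNTGT in 2 (3.39%) and 5.84%. TATAAA was thus the most common of the 3 among the members, at a share near that of all promoters. The 10 genes with TATAAA were Abcg5, Cd209f, Cd209g, Esrrg, Fgf21, Mybph, Pparg, Retnla, Rgs4 and Wif1, and ACANNNTGT was found at Abcb1a and Abcg5. A match is a run of letters and not a shown binding site.

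Below are the upstream 250 bases of the 2 members with the highest ratio among those whose window holds no annotated exon, Inhbb (chr1:119422249-119422498, minus strand) and Pcp4l1 (chr1:171196269-171196518, minus strand), which hold none of the 3 motifs. Beside them are the 2 most abundant such members with a motif, Mybph (chr1:134193198-134193447, plus strand) and Fgf21 (chr7:45615491-45615740, minus strand). Sequences are from RefSeq on GRCm38.p6, each 5′ to 3′ on the strand of its gene, and capitals mark TATAAA in either orientation. The Inhbb window is 68% G and C, against 51.6% at Pcp4l1, 61.6% at Mybph and 59.6% at Fgf21.
Inhbb: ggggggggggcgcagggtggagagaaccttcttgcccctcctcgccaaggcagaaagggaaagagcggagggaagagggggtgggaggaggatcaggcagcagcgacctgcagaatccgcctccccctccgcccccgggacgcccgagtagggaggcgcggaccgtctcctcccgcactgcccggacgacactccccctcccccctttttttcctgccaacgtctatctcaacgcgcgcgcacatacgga
Pcp4l1: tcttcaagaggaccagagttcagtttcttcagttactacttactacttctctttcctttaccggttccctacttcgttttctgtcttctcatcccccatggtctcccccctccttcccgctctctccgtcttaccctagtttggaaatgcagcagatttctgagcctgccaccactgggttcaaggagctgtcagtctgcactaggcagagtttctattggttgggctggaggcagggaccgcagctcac
Mybph: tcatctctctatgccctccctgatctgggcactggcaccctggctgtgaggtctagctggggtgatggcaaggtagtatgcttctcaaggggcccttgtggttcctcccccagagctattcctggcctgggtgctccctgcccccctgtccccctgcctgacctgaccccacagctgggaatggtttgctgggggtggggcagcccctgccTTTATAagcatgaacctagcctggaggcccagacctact
Fgf21: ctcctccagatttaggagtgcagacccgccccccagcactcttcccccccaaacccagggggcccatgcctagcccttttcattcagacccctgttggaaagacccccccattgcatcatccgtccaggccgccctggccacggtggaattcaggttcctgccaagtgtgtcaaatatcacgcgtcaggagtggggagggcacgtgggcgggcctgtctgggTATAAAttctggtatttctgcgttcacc

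Mir802, the microRNA gene among the members, is shown by its 2 mature products on GRCm38.p6, with the seed (bases 2 to 8) in capitals. They lie on the plus strand at chr16:93369737-93369758 (5p) and chr16:93369775-93369796 (3p).
mmu-miR-802-5p: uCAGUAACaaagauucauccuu
mmu-miR-802-3p: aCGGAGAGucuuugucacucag
Its counts were small, at 12 and 11 reads at P14 and 0 to 2 in each other sample, and it was the member not tested. Reads on a hairpin locus in a poly(A) library do not measure the mature microRNA.

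Plasma proteins and secreted hormones made up 8 members and held the most abundant. Ahsg, which encodes the plasma glycoprotein fetuin-A, was at 8016 and 4507 RPKM at E18, peaked at 32912 and 32620 at P14 and stood at 12820 and 12020 by P28 and 6982 and 6878 in adults. Hp, which encodes the hemoglobin scavenger haptoglobin, was at 3858 and 3766 RPKM at P14, after 47.1 and 68.8 at E18, and then at 1458 and 1487 in the P28 samples and 1423 and 1615 in the adult samples. Igfbp2, a binding protein of insulin-like growth factors, was at 33.7 and 9 RPKM at E18, peaked at 956 and 1028 at P14 and stood at 156 and 174 by P28 and 223 and 151 in adults. In these 3 genes the P14 pair was tight and clear of every other sample, and E18 had the lowest mean in each.

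Inhbb, the beta B subunit of activins and inhibins, had the highest ratio of all members. It was at 6.61 and 11.9 RPKM at P14, after 0.299 and 0.208 at E18, and then at 0.152 and 0.149 in the P28 samples and 0.13 and 0.138 in the adult samples. Outside P14 no comparison was called, with an edgeR adjusted p of 0.72 for P28 against E18 and of 0.79 for adult against P28. Defb1, an antimicrobial beta-defensin, was at 0.0467 and 0.0387 RPKM at E18, peaked at 12.5 and 12.9 at P14 and stood at 0.651 and 0.414 by P28 and 0.0444 and 0.147 in adults. The low E18 values rest on 4 and 3 reads.

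Fgf21, a hormone made by the liver in fasting and in suckling, was at 7.68 and 4.25 RPKM at P14, after 0.147 and 0.237 at E18, and then at 2.71 and 1.73 in the P28 samples and 0.758 and 1.6 in the adult samples. Its P14 samples differed 1.81-fold, more than in most members, yet both lay above the other 6. Wif1, a secreted inhibitor of Wnt proteins, was 3.5 times its adult mean, and C1qtnf1, a C1q and TNF related protein, 2.59 times its P28 mean. C1qtnf1 overlaps the noncoding member Gm11747 on the other strand over 7583 bases. The use of strand in counting is not stated, so reads of the 2 genes cannot be told apart. The same holds for Ostb with Rasl12 (3386 bases), Fam83f with A430088P11Rik (6586 bases) and Sybu with 2310069G16Rik (308 bases).

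**Figure D2:**
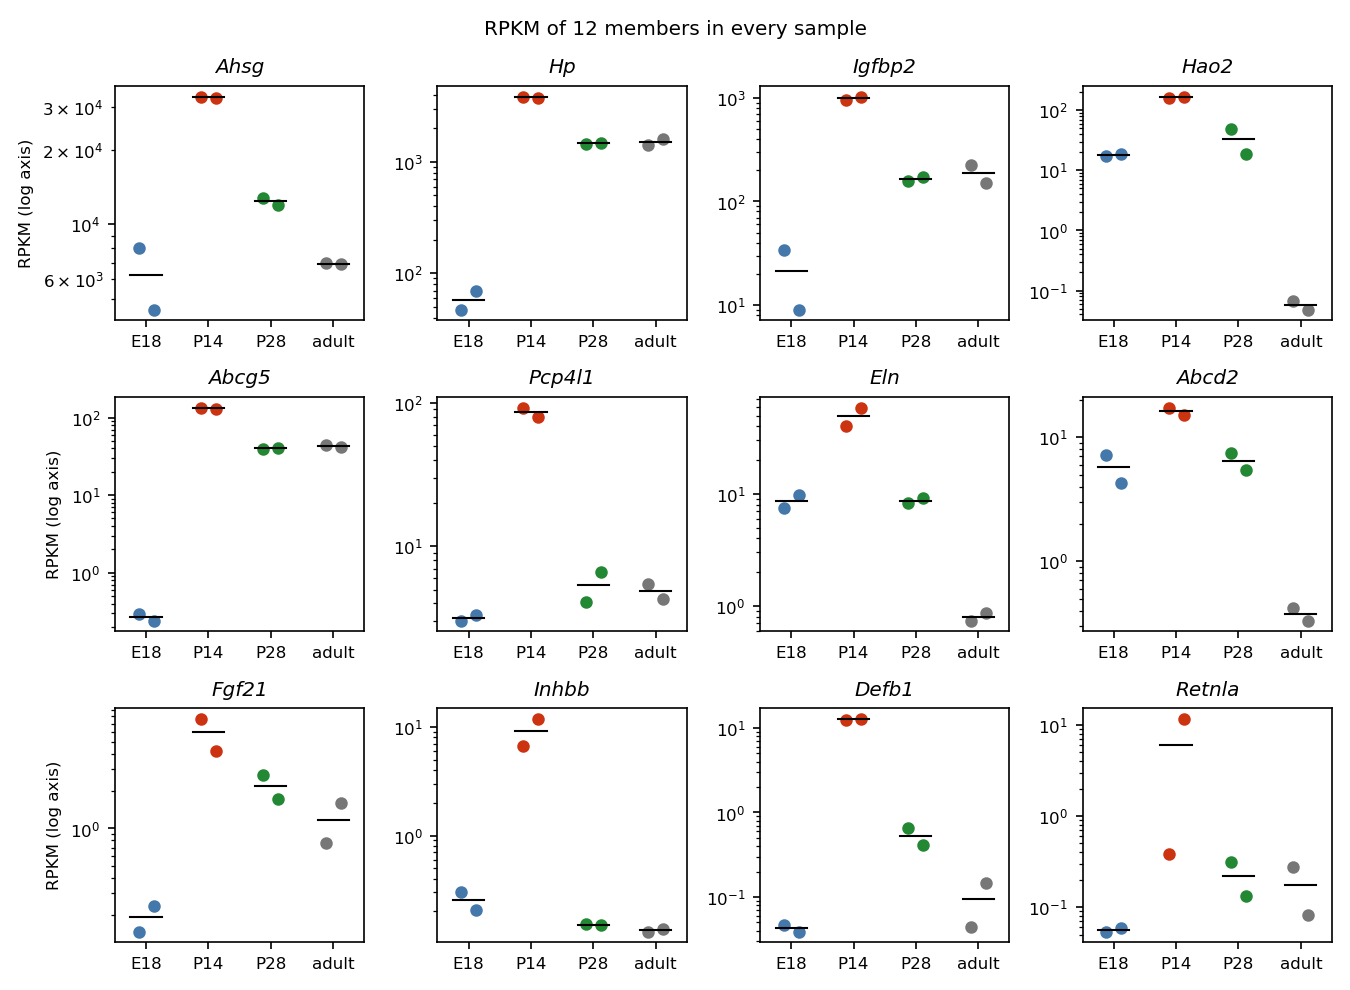
RPKM (log axis, its range set for each gene) of 12 members in each of the 8 samples, with dots for samples and a black line at the mean of each stage (n = 2). The P14 dots lie above all others in each panel, those of Retnla far apart at 0.386 and 11.7, and the order of E18, P28 and adult differs between genes.

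Transporters and channels were 9 members, most of them carriers of lipids, bile acids or organic anions. Abcg5, a subunit of the sterol exporter of the canalicular membrane, was at 0.293 and 0.24 RPKM at E18, peaked at 134 and 129 at P14 and stood at 39.7 and 41 by P28 and 44.7 and 41.6 in adults. It went from almost no transcript to its peak and then to close levels at P28 and in adult. Slco1a4, an uptake carrier of organic anions, was at 62.5 and 55.1 RPKM at P14, after 0.00559 and 0.0124 at E18 (2 and 4 reads), and then at 9.17 and 7.41 in the P28 samples and 12 and 6.88 in the adult samples. Ostb, a subunit of the basolateral bile acid exporter, was at 0.197 and 0.267, 24.8 and 26.7, 7.15 and 6.21, and 2.72 and 2.61 RPKM at E18, P14, P28 and adult in turn.

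Abcd2, a peroxisomal carrier of very long chain fatty acids, kept to another course. It was at 7.15 and 4.27 RPKM at E18, peaked at 17.3 and 15.2 at P14 and stood at 7.46 and 5.45 by P28 and 0.418 and 0.331 in adults, so that E18 and P28 overlapped on deposited RPKM and adult was far below. Slc13a3, a sodium-coupled dicarboxylate carrier, was at 24 and 12.4 RPKM at E18, 50.5 and 64.7 at P14, and between 5.82 and 8.02 in the 4 later samples. Sidt1, a transmembrane protein of the SID1 family, was at 1.09 and 1.29 RPKM at P14 and at most 0.118 in any other sample. Abcb1a, a drug efflux pump, Atp6v0d2, a subunit of the proton pump, and Scn4b, a sodium channel subunit, completed the group at 3.75, 2.96 and 2.54 times the next stage.

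Among 8 lipid and retinoid genes, Hao2 showed the widest range. Hao2, a peroxisomal 2-hydroxy acid oxidase that is higher in female than in male mouse liver, was at 161 and 169 RPKM at P14, after 17.6 and 18.6 at E18, and then at 48.8 and 18.6 in the P28 samples and 0.0663 and 0.0479 in the adult samples. The P14 samples nearly matched while their Xist levels differed, and the part of sex was not tested. Rdh9, a retinol dehydrogenase, was at 0.0475 and 0.0658 RPKM at E18, peaked at 41.8 and 39.8 at P14 and stood at 13.4 and 12.3 by P28 and 6.71 and 4.47 in adults. Rdh5, another enzyme of that kind, was at 7.88 and 10.9, 51.4 and 58, 20.3 and 19.4, and 18.7 and 19.2 RPKM over the 4 stages in turn.

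O3far1, a receptor for long-chain fatty acids, was at 4.43 and 4.16 RPKM at P14 and between 0.14 and 0.483 in the other 6 samples. Vnn3, a pantetheinase of the vanin family, was at 53.5 and 50.9 RPKM at P14, after 3.51 and 3.83 at E18, and then at 22.1 and 19.4 in the P28 samples and 3.88 and 3.13 in the adult samples. Gpihbp1, which holds lipoprotein lipase at the capillary wall, was at 44.7 and 41.6 RPKM at P14 and between 4.21 and 13 elsewhere. Pparg, the fat cell nuclear receptor, was at 5.68 and 5.73 RPKM at P14 and between 0.935 and 2.67 elsewhere, and the orphan receptor Esrrg was 2.88 times its adult mean. Adipocyte markers summed to 0.159 to 0.258 RPKM in all 8 samples.

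Some members act with partners that the rule did not pick, and the partners differed in course. Abcg8, the partner subunit of Abcg5, was at 39.4 and 45.8 RPKM at P14 and peaked less sharply, at 1.4 times its adult mean. Osta, the partner of Ostb, was at 1.43 and 0.797 RPKM at E18 and at most 0.0158 in all later samples. Klb, the co-receptor of Fgf21, was at 5.7 and 5.57 RPKM at P14, and at 11.2 and 9.84 at E18 as deposited, but at 6.59 and 6.51 against 6.99 and 6.39 after TMM rescaling. Lpl, the lipase held by Gpihbp1, which exceeded its next stage 2.18 times as deposited and 3.98 times after rescaling, was at 83.3 and 72.9 RPKM at E18, peaked at 174 and 166 at P14 and stood at 34.5 and 33 by P28 and 2.47 and 2.91 in adults. Col4a4, which assembles with the member Col4a3, was at 0.7 and 0.617 RPKM at P14, 6.24 times its P28 mean, and missed the rule for its low level. These 5 genes were picked after the members were known, and their values are a description.

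Extracellular matrix genes were 8 members. Eln, which encodes elastin, was at 40.4 and 58.9 RPKM at P14, after 7.43 and 9.72 at E18, and then at 8.28 and 9.11 in the P28 samples and 0.734 and 0.857 in the adult samples. Mgp, matrix Gla protein, an inhibitor of calcification, was at 2.34 and 2.13, 28.5 and 41.4, 11.1 and 10.5, and 4.63 and 5.47 RPKM over the 4 stages in turn. Both were higher in P14 replicate 2. Col4a3 and Col4a5, chains of basement membrane collagen, reached 1.33 and 1.19 and 2.12 and 2.53 RPKM at P14. Tgfbi, Ctgf, Cpz and Adamtsl4 were 2.58, 3.17, 2.54 and 2.52 times the next stage. Markers of stellate or mesenchymal cells summed to 226 and 189 RPKM at E18, 234 and 316 at P14, 148 and 155 by P28 and 102 and 104 in adults, and endothelial markers to 146 and 144 at P14 and 63.1 to 84.1 elsewhere. Clec4g alone made up 71.3 RPKM of each endothelial P14 sum, after 7.95 and 7.76 at E18. Stab2, Kdr and Fcgr2b also had their highest values at P14. Pecam1 was at 11.8 and 10.7 RPKM at E18 and 11.7 and 11.8 at P14, and Lyve1 was highest at E18, at 26.8 and 23.9. All 8 mesenchymal and 6 endothelial markers had reads at every stage, and the part of these cells in the matrix genes was not tested.

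Immune cell genes were 9 members, with P14 means under 10 RPKM. Gzma, a protease of cytotoxic cells, was at 3.55 and 4.11 RPKM at P14, after 0.28 and 0.148 at E18, and then at 1.5 and 0.863 in the P28 samples and 0.617 and 0.376 in the adult samples. Klrd1, an NK cell receptor, reached 1.29 and 1.19 RPKM at P14, and Gzmb, Cd7 and Gimap7 of lymphocytes 2.56, 2.5 and 2.55 times their P28 means. For 8 T or NK cell markers, which include Gzma, the summed RPKM was 1.77 and 1.6 at E18 and 8.19 and 8.77 at P14. It was 4.5 and 3.51 at P28 and 3.47 and 4.48 in adults. Gzma, chosen for its P14 level, made up 3.55 and 4.11 RPKM of the P14 sums. Of the other 7, 6 were called higher at P14 than at E18, against 13.8% of all genes. From P14 to P28, 0 of the 7 were called in either direction, and Cd4 was highest in adults, at 1.83 and 2.76 RPKM. Leaving out Gzma removes the marker that the rule chose for its fall from P14. The counts of the other 7 are thus partly set by the rule. None of the 8 was at 0 in a sample, and the part of these cells was not tested. Cd209f and Cd209g, neighbouring lectin genes, reached 9.42 and 8.08 and 3.4 and 2.93 RPKM, and their near copies may share reads. Il7, a lymphocyte growth factor, was at 1.41 and 1.69 RPKM at P14, 0.427 and 0.487 at E18, and at most 0.186 later.

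In 3 members the P14 mean rested mostly on a single sample. Retnla, a secreted product of alternatively activated macrophages, was at 0.386 RPKM in P14 replicate 1 (26 reads) and 11.7 in replicate 2 (779 reads), with 0.0536 to 0.31 in the other stages. Dmbt1, a mucosal scavenger protein, was at 0 and 8.16 RPKM at P14 and at 0.935 and 0.877 at E18. Ly6d, a surface protein of epithelia and lymphocytes, was at 2.04 and 10.7 RPKM. In 66 members the P14 samples were within 1.5 times of each other, the median ratio was 1.16, and replicate 2 was the higher in 45. Krt23, a keratin, was at 6.12 and 10.9 RPKM, so that it too leaned on replicate 2, and both samples lay above the 1.49 of the highest other sample.

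**Figure D3:**
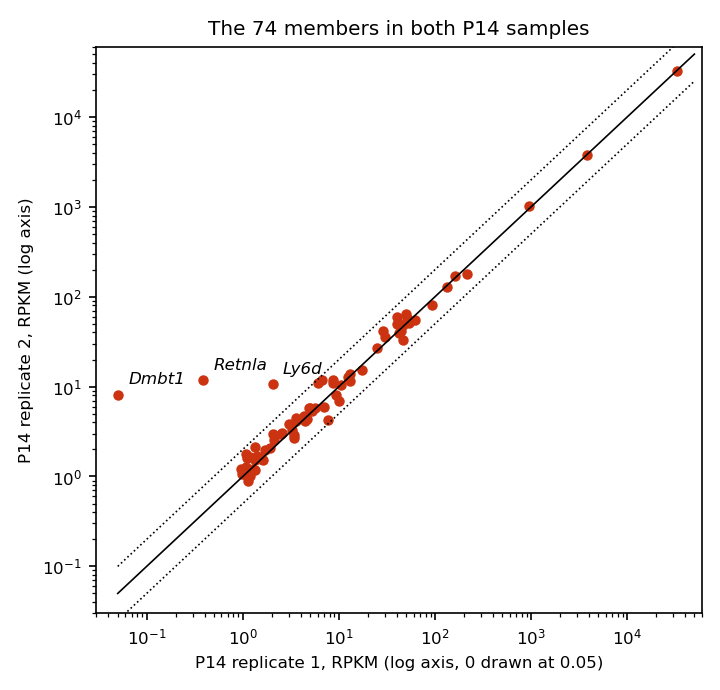
RPKM of the 74 members in P14 replicate 1 (horizontal) and replicate 2 (vertical), both on log axes, with a solid line of equality and dotted lines at 2-fold. Dmbt1 (0 drawn at 0.05), Retnla and Ly6d lie above the upper dotted line and the other 71 lie between the lines.

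Transcription and signalling genes were 8 members. Cdkn1a, the cell cycle inhibitor p21, was at 46.6 and 32.6 RPKM at P14, after 18.4 and 10.5 at E18, and then at 7.07 and 3.47 in the P28 samples and 0.608 and 0.808 in the adult samples. Sall1, a zinc finger factor, was at 13 and 11.4 RPKM at P14 and between 2.45 and 3.61 in all other samples. Msc and Grhl1, developmental transcription factors, were 5.53 and 5.21 times their E18 means. Rgs4, Rasl12, Neurl1b and Pygo1, of G protein, Ras-like, Notch and Wnt signalling, were between 3.46 and 3.78 times their P28 means.

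A pair of members belongs to motile cilia, structures that hepatocytes lack. Dnaic1, an axonemal dynein chain, was at 2.65 and 2.13 RPKM at E18, peaked at 40.9 and 50.8 at P14 and stood at 8.18 and 9.3 by P28 and 1.86 and 1.79 in adults. Rsph4a, a radial spoke protein, was at 0.615 and 0.25, 4.29 and 4.69, 0.0669 and 0.00916, and 0.00371 and 0.01 RPKM over the stages in turn. The adult values of Rsph4a rest on 1 and 3 reads.

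Of the 17 other proteins, Pcp4l1, a relative of a calmodulin-binding Purkinje cell protein, was at 92.6 and 80.1 RPKM at P14, after 3.03 and 3.3 at E18, and then at 4.07 and 6.67 in the P28 samples and 5.49 and 4.32 in the adult samples. D0H4S114, now named Nrep, was at 214 and 178 RPKM at P14 and between 27.1 and 54.3 elsewhere. Calml4, a calmodulin-like protein, was at 6.31 and 7.11, 30 and 35.6, 1.84 and 2.05, and 1.54 and 1.39 RPKM from E18 to adult. A630076J17Rik was at 0.0481 and 0.16 RPKM at E18, peaked at 46.5 and 48.2 at P14 and stood at 14.5 and 12.2 by P28 and 11.8 and 19.1 in adults. Sybu, syntabulin, was 6.44 times its E18 mean, and the noncoding Gm5420 and 2310069G16Rik were 9 and 7.99 times the next stage. Mybph, a myosin-binding protein of muscle, was at 8.79 and 11.1 RPKM at P14 and between 1.02 and 3.82 elsewhere, while the muscle markers summed to 1.03 and 7.57 RPKM in these samples, to 16.5 and 20.2 at E18, where Mybph was lowest, and to 1.08 to 1.5 later. Fam83f, Fam84b and Fam180a, which share a symbol stem but not a known function, were 3.16, 3.02 and 4.85 times the next stage.

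The courses of the members outside P14 were not used by the rule one against another, although each stage entered as an upper limit. They were tested in edgeR over all 17081 genes that passed a filter on low counts, with a call at a Benjamini-Hochberg adjusted p below 0.1 and a change over 3-fold. Of the 74 members 73 passed that filter, 72 of them on the 6 samples outside P14 alone. The exception was 2310069G16Rik, without which the counts below are 31 and 2, 20 and 11, and 0 and 18 higher and lower. The 3 comparisons share samples.

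From E18 to P28 most moving members went up. P28 was higher in 32 of 73 (43.8%), where 16.5% of all genes were called, and lower in 2 (2.74%), where 21% were. The median log2 change was 1.45 over the members and -0.09 over all genes tested. Slco1a4 led with a log2 change of 10.69 ± 0.46 (SE, edgeR adjusted p = 5.5e-08), then Rdh9 with 8.71 ± 0.29 (edgeR adjusted p = 1.3e-08) and Abcg5 with 8.13 ± 0.14 (edgeR adjusted p = 1.5e-09). The value for Slco1a4 depends on 6 reads at E18. Scn4b fell by 2.93 on the log2 scale (SE 0.47, edgeR adjusted p = 0.00036) and Rsph4a fell by 2.55 (SE 0.60, edgeR adjusted p = 0.0037). In 31 of the 32 both P28 samples lay above both E18 samples on deposited RPKM, and in both falls they lay below. The rule bears on this split, since it set its limits on deposited RPKM and the larger TMM factors of E18 put E18 further below P14 on the scale of the test. Among the 123 genes that the same rule finds on TMM-rescaled RPKM, 122 were tested, 31 were higher (25.4%) and 4 lower (3.28%), with a median log2 change of 0.50. With library size alone in place of TMM, which moved the median of all genes by -0.88, the split of the members was 20 higher and 5 lower.

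From E18 to adult the members went both ways. Adult was higher in 20 (27.4%), against 16.8% of all genes, and lower in 11 (15.1%), against 23.8%. The median log2 change was 0.86 over the members and -0.11 over all genes. Slco1a4, Abcg5 and A630076J17Rik rose by 10.86, 8.21 and 8.08 on the log2 scale (edgeR adjusted p = 4.2e-08, 1.2e-09 and 7.3e-08). Hao2 fell by 7.43 (SE 0.59, edgeR adjusted p = 2.6e-06), Rsph4a fell by 5.01 (SE 0.89, edgeR adjusted p = 0.00066) and Scn4b fell by 3.74 (SE 0.54, edgeR adjusted p = 0.00017). The other 8 that fell were Abcd2, Ankrd22, Cdkn1a, Eln, Gm5420, Il7, Pygo1 and Sybu. These shares also depended on the scale of the rule. Among the genes it finds on TMM-rescaled RPKM, 21 of 122 were higher (17.2%) and 27 lower (22.1%), near the shares of all genes, with a median log2 change of -0.09. On library size alone, which moved the median of all genes by -0.85, 13 members were higher and 22 lower.

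Between P28 and adult the calls went down. Adult was lower in 19 of 73 (26%), where 2.24% of all genes were called, and both adult samples lay below both P28 samples in all 19. Adult was higher in 0, where 0.767% were. By edgeR 2 members were higher at an unadjusted p below 0.05, 1 had an adjusted p below 0.1, and DESeq2 and limma also called 0. The median log2 change was -0.85 over the members and 0.00 over all genes. Hao2 fell by 9.23 (SE 0.59, edgeR adjusted p = 5.1e-05), Abcd2 fell by 4.13 (SE 0.28, edgeR adjusted p = 6.4e-05) and Eln fell by 3.47 (SE 0.22, edgeR adjusted p = 5e-05). Vnn3, Cdkn1a, Dnaic1, Defb1 and Il7 were also called, with log2 changes of -2.59, -2.92, -2.28, -2.46 and -1.82. Abcg5, Hp and Igfbp2 differed by 0.08 ± 0.10, 0.02 ± 0.18 and 0.17 ± 0.46 (edgeR adjusted p = 0.64, 0.95 and 0.86). Among the genes that the rule finds on TMM-rescaled RPKM, 22 of 122 were lower (18%) and 0 higher, with a median log2 change of -0.70.

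**Figure D4:**
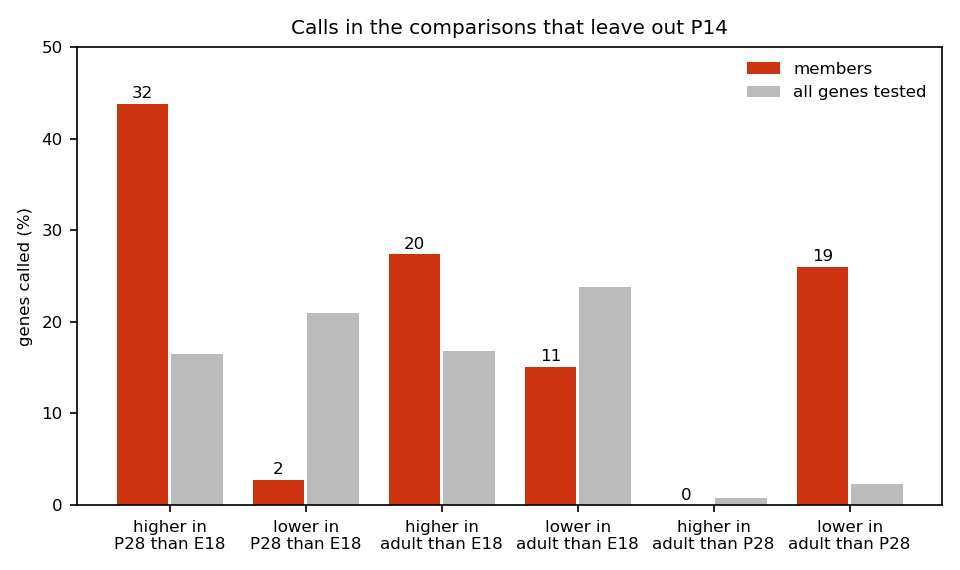
Percent of members (red, with the number called above each bar) and of all 17081 genes tested (grey) called in each direction in the 3 comparisons without P14, by edgeR at an adjusted p below 0.1 and over 3-fold. Members stand above the grey bars for higher in P28 or adult than E18 and for lower in adult than P28, and below them elsewhere. With the rule applied to TMM-rescaled RPKM, the shares higher in P28 than E18 and lower in adult than P28 were smaller (25.4% and 18%). For adult against E18 they were then 17.2% higher and 22.1% lower, near the shares of all genes.

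By role, of the 8 plasma proteins and hormones, 5 were higher at P28 and 4 in adult than at E18, and only Defb1 was called lower in adult than at P28. Of the 9 immune cell genes, 6 were higher at P28 than at E18 and 3 were lower in adult than at P28, with a median log2 change of -1.29 in that step. The 8 transcription and signalling genes had 2 higher and 2 lower in adult than at E18 and 3 lower in adult than at P28. Of the 8 matrix genes 2 were lower in adult than at P28, Eln and Col4a5. Over all genes tested, 16.5% were higher at P28 than at E18 and 2.24% were lower in adult than at P28. Against E18, 16.8% were higher and 23.8% lower in adult. The roles were assigned after the members were known, so the counts by role carry no test of their own.

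Of 29 lists of regulated genes and cell markers, 8 held a member. In all 10 members (13.5%) stood in a list, as did 326 (1.48%) of all genes listed, and the lists were not chosen independently of these data. In those 8 lists, the genes that are not members could be tested in the P14 comparisons. Leaving out the members takes from each list the genes that the rule chose for their rise to P14 and fall to P28. The counts of the rest are thus partly set by the rule, while the shares of all genes still include the members. Over all genes 13.8% were called higher and 15.4% lower at P14 than at E18, and 3.61% were higher and 5.98% lower at P28 than at P14. Fgf21, Vnn3 and Abcd2 stand among the targets of PPAR-alpha, the nuclear receptor of fatty acid oxidation. Of its 34 other targets tested, 22 were higher and 2 lower at P14 than at E18, and from P14 to P28 2 rose and 2 fell. Cpt1a, the gate of mitochondrial fatty acid entry, rose by 4.65 ± 0.11 on the log2 scale from E18 (edgeR adjusted p = 6.2e-09) and Fabp1, a fatty acid binding protein, by 4.31 ± 0.14 (edgeR adjusted p = 2.2e-08). The summed level of the list was 7632 and 6896 RPKM at P14, after 1339 and 1408 at E18, and then at 15423 and 15632 in the P28 samples and 14554 and 15007 in the adult samples. Fabp1 made up most of that sum at P28. The other 37 genes summed to 3187 and 3035 RPKM at P14 and to 3151 and 3309 at P28, and the median log2 change of the 34 targets from P14 to P28 was -0.14.

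Hao2 is 1 of 20 genes known as higher in female liver. Of the other 19, 17 were higher at P14 than at E18, and 11 were lower and 1 higher at P28 than at P14. The sum of the list was 430 and 420 RPKM in the P14 samples, 168 and 52 at P28, and 11.7 and 15.9 in adult. Hao2 differed between the P28 samples in the same direction, at 48.8 and 18.6 RPKM. Several of the 19 are of the Cyp, Sult and Fmo families left out of the rule, among them Sult2a6 at 78.1 RPKM and Cyp2b9 at 45.8 RPKM on average at P14. Y-linked transcripts prevailed in P14 replicate 1 and Xist in replicate 2, which held both kinds. The sums of the list at P14 were nearly equal, with 161 and 169 RPKM of them from Hao2 itself. All P28 and adult samples held Y-linked transcripts and had Xist at or below 0.0425 RPKM. Sex was thus not balanced over the stages, and its part in these levels was not tested.

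Hp is an acute phase gene, and of 13 others 9 were higher and 0 lower at P14 than at E18, while 5 rose and 1 fell from P14 to P28. Orm1, an acute phase carrier protein, had the largest rise to P28 in the list, by 7.34 on the log2 scale (edgeR adjusted p = 2.1e-07), unlike Hp. Hpx, Apcs, Itih3 and Itih4 were highest at P14, as Hp was. Their log2 changes to P28 were -0.68, -0.59, -0.85 and -0.41 (edgeR adjusted p = 0.0026, 0.002, 0.00055 and 0.036), short of the 3-fold limit of a call. Abcb1a and Slco1a4 are targets of the xenobiotic receptors CAR and PXR, of whose 12 others tested 7 were higher and 0 lower at P14 than at E18, and 3 rose and 2 fell to P28. Cdkn1a stands among glucocorticoid response genes, with 15 others of which 8 were higher and 2 lower at P14 than at E18, and 0 rose and 5 fell to P28. Fgf21 is also an ATF4 target, and of 15 others 1 was higher and 4 were lower at P14. Ahsg was the member among hepatocyte markers, where all 5 others were higher at P14 than at E18 and 0 changed by the call from P14 to P28.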

How the data were processed

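Poly(A) RNA-seq of whole mouse liver was analysed at 4 stages with 2 samples each, grouped by the labels. For each gene the authors deposited the raw read count and the RPKM. The labels name mm9, the aligner is not given in the sources used here, and the use of strand is not stated. Each count divided by its RPKM gave 1 length per gene and 1 total per sample (5829 genes, largest relative deviation 5.27e-11), so composition was not corrected in the deposited RPKM. Low levels are limited by counting, at 68154675 to 106055723 reads per sample.

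Members were selected on stage means of RPKM. Members and gene lists were chosen with earlier results of these data known, and the roles and partners after the members were known. Counts were tested in edgeR 4.0.16 (R 4.3.3; TMM, filterByExpr, glmQLFit, glmQLFTest, 1 fit of all 8 samples) with Benjamini-Hochberg adjustment over 17081 genes. Alternatives were DESeq2 1.42.0, limma 3.58.1 on log2(RPKM + 0.1) of the deposited RPKM, other scalings, filters and thresholds, leaving out each sample and a replicate block. The fitting code was tested on simulated data. Named genes were the 12 most abundant members, the 12 with the highest ratio, members of a list, the 3 largest called changes in each direction, the 3 on each side of the limit, those that lost the ratio on rescaling and symbol families of 3 or more, and other members were named to fill each role after their values were seen. The labels do not say that duplicates came from separate litters, so p-values measure the spread between these samples. Replicate numbers did not pair the samples, with correlations of deviations between stages from -0.414 to 0.161.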

Additional observations from a re-analysis of the deposited data

How the results depend on the processing

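Of 136 recomputed counts, 116 stayed within 1.5 times. The rule gave 123 genes on TMM-rescaled RPKM, 71 of them shared, and 111 by median-ratio factors, 65 of them shared. It gave 133 at 2-fold, and 46 when the lower P14 sample was set against the highest other sample. Leaving out 1 sample gave 67 to 84 genes. Leaving out P14 replicate 2 and E18 replicate 1 together gave 67, and keeping only members that pass the filter outside P14 left all 6 counts within 1.5 times, both chosen after seeing the data. Members higher in P28 than E18 numbered 20 with at least 10 counts in every sample, 20 on library size alone and 18 by limma, and lower ones 0, 5 and, among the 123, 4. Higher in adult than E18 were 13 with at least 10 counts in every sample, 13 on library size alone, 9 by limma and 31 over 2-fold. Lower in adult than E18 were 5, 22, 27 among the 123, and 18 over 2-fold. Lower in adult than P28 were 31 over 2-fold and 10 by limma. Higher in adult than P28 were 0 to 1 when 1 sample was left out, the 1 without P28 replicate 2. The count filter tests fewer genes by construction, and the cause of the other shifts was not tested. The replicate block gave 32, 2, 20, 11, 0 and 19, the main counts, and the numbers do not pair the samples.

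With 2 samples a stage the spread of a single gene is poorly known. Members with few reads outside P14 have uncertain ratios, and those with few reads at P14, as Mir802, have no test. P14 replicate 2 carries Retnla, Dmbt1 and Ly6d.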
